A study of Drosophila melanogaster with 6 samples.

Results

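ATP-binding cassette (ABC) transporter genes were examined in RNA from the fat body of adult *Drosophila melanogaster* females. A list of 58 ABC gene names of subfamilies A to H was compared with the gene symbols of the deposited tables, and 49 names each matched 1 of the 17558 genes. Of the 9 names without a match, 5 are older names of matched genes in RefSeq (*CG6162*, *CG7491*, *CG10441*, *CG18633* and *CG1819*). The other 4 (*CG32186*, *CG5944*, *CG8473* and *dMRP4*) are given there to genes that the tables hold under other symbols. Subfamilies G and C were the largest, with 14 and 13 of the 49 genes, followed by A with 7, B with 6, and F and H with 3 each, and *CG32091* was not assigned to a subfamily.

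ABC proteins bind and hydrolyze ATP, and most use that energy to move a substrate across a membrane. In animals, A and G subfamily proteins are known for moving lipids, sterols and pigment precursors. Those of B and C export drugs, toxins and conjugated metabolites, and the insect H subfamily is known from the lipid barrier of the cuticle. Members of E and F have no membrane-spanning part and act on the ribosome. The insect fat body combines the lipid storage and detoxification that adipose tissue and liver perform in vertebrates.

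The study compared *svp* RNAi with *Luc* control RNAi, in 3 libraries each, to find transcripts that depend on Svp, an orphan nuclear receptor of the COUP-TF type, in the adult fat body. All females carried *y w*, *PromE800-Gal4*, *tub-Gal80ts* and *3.1Lsp2-Gal4*, a pair of drivers for oenocytes and adipocytes that is held off by Gal80 at 18 °C and released at 29 °C. The *svp* RNAi females also carried *UAS-svp GD1546*, and the *Luc* control RNAi females *UAS-Luc JF01355*, a hairpin against firefly luciferase whose libraries the sample labels call wild type. Young adult females were kept with *y w* males and moved to 29 °C for 5 days. Cells dissociated from the abdominal carcasses of 100 females were pooled for each genotype, so a library averages many animals, and each group stands for 1 hairpin line. The paper describes 3 independent experiments.

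Between 15648948 and 19476599 fragments were counted on genes in each library. CPM values below divide counts by library totals after TMM scaling in edgeR, with factors of 0.824 to 1.39. Where no fragment was counted, up to 3 counts (0.128 to 0.215 CPM) remain possible from counting error alone. The targeted gene *svp* stood at 67.1, 86.9 and 82.4 CPM in libraries labelled *svp* RNAi, against 28.9, 77.5 and 79.0 CPM in *Luc* control RNAi libraries (log2 fold change 0.35, SE 0.39). These values overlap and passed no test, so the counts show neither a decrease nor an increase of *svp*, and directions below refer to the labels. Summed fat body markers (yolk proteins and others) were at 138382 to 172715 CPM in libraries labelled *svp* RNAi and 55204 to 157091 CPM in *Luc* control RNAi libraries. Other cells were present too, since summed digestive enzyme transcripts of the midgut reached 38.8, 7.16 and 658 CPM in libraries labelled *svp* RNAi, against 1424, 10.7 and 7.85 CPM in *Luc* control RNAi libraries. The pigmentation gene *y* had 0 counts in each library labelled *svp* RNAi, against 534, 1996 and 795 counts in *Luc* control RNAi libraries, although all females are described as *y w*. Genetic background and hairpin cannot be told apart in this design.

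Transcripts of 48 of the 49 ABC genes were found in each of the 6 libraries. The remaining gene, *CG6052* of subfamily A, had 0 counts throughout. Levels of different genes are compared here in FPKM, the values per gene length and library size that the authors deposited. A mean of at least 10 FPKM over the libraries was found for 25 ABC genes, 1 to 10 FPKM for 14 and under 1 FPKM for 10. The median ABC gene had a mean of 10.2 FPKM, against 5.15 FPKM for the median of all detected genes. ABC transcripts made up 0.349, 0.325 and 0.345% of the counts in libraries labelled *svp* RNAi, against 0.355, 0.291 and 0.291% in *Luc* control RNAi libraries, and these ranges overlap.

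A few genes held much of this sum. The 5 most abundant were *pix* (subfamily E), *CG17646*, *CG31689* and *CG3164* (all G) and *CG9281* (F). Together they held 52.8, 54.3 and 54.2% of the summed ABC FPKM in libraries labelled *svp* RNAi, against 45.7, 50.3 and 54.8% in *Luc* control RNAi libraries. The plot of FPKM by library shows how levels spread over subfamilies, with every H gene above 2 FPKM and the C genes spread from under 0.1 to over 20 FPKM.

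**Figure D1:**
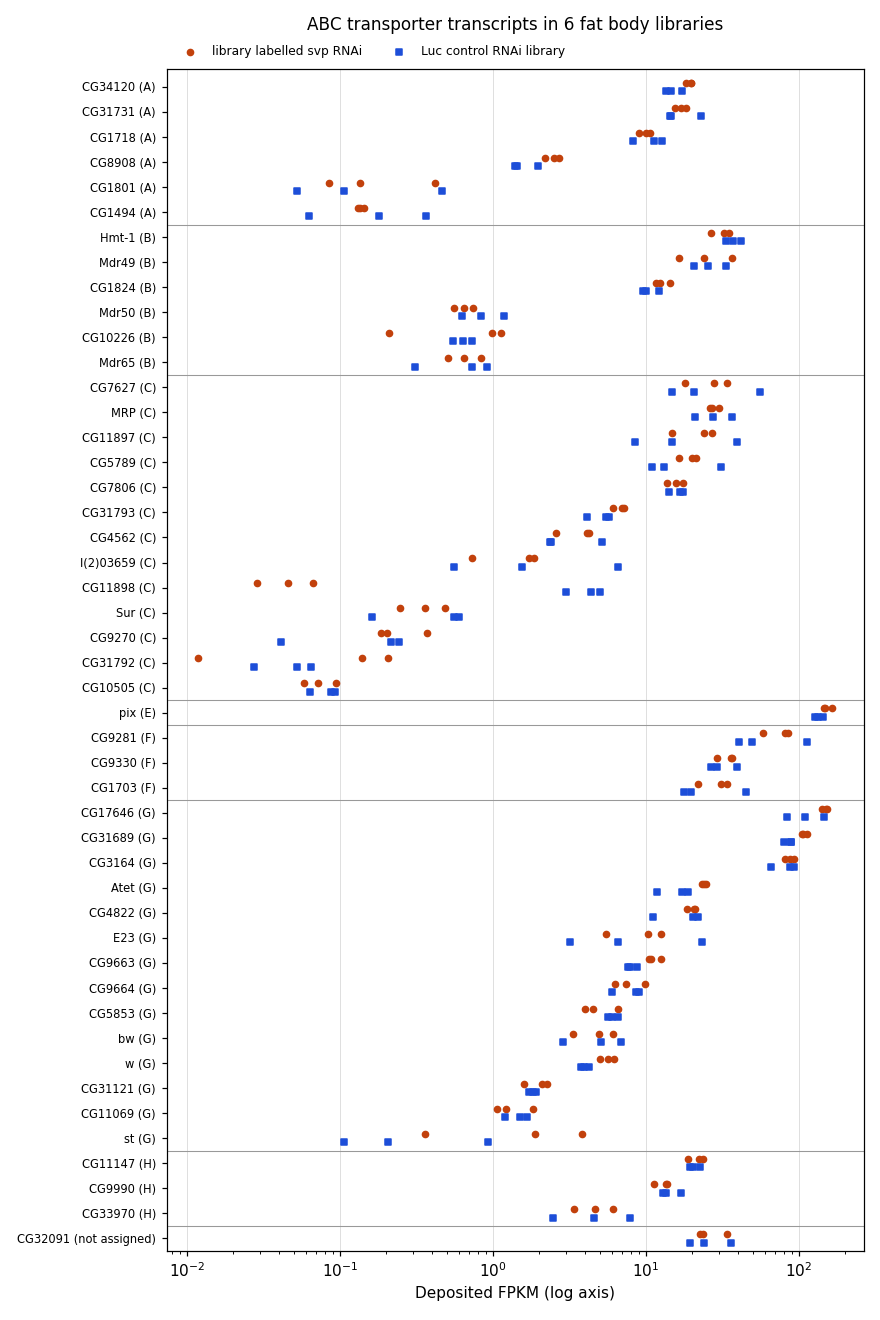
Deposited FPKM (log axis) of 47 ABC transporter genes with counts, grouped by subfamily, with 1 point per library; libraries labelled svp RNAi are circles and Luc control RNAi libraries are squares. In CG11898 the circles lie near 0.05 FPKM and the squares near 4 FPKM, whereas for most other genes the symbols overlap.

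Of the 46 ABC genes with enough counts for edgeR's quasi-likelihood test, 1 gene changed, *CG11898*, which fell in the libraries labelled *svp* RNAi. None rose. The threshold was a Benjamini-Hochberg adjusted p under 0.05 over the 9277 genes tested, and 9 of all genes passed it, 0.097% (0.0755% lower and 0.0216% higher). DESeq2 also called *CG11898* alone among the ABC genes, with 1.29% of all genes called. At an unadjusted p under 0.05, edgeR gave 2 ABC genes, *CG11898* and *st*, where 4.99% of all genes tested passed.

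For the other 45 ABC genes the lowest adjusted p in edgeR was 0.912. Their log2 fold changes (libraries labelled *svp* RNAi over *Luc* control RNAi) ranged from −0.82 for a C subfamily gene (FBgn0010549) to 2.42 for *st*, and 40 of them lay within 0.5 of 0. The median log2 fold change was −0.021 over the ABC genes and −0.056 over all genes tested, with 22 ABC genes above 0 and 24 below. That is 47.8% above 0, against 40.9% of all genes tested. These libraries limited how small a change could be seen. The 95% interval of the log2 fold change lay between −1 and 1 for 20 of the 46 ABC genes, and for 48.4% of all genes tested. Apart from *CG11898*, the intervals of the remaining ABC genes reached a 2-fold change in at least 1 direction.

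**Figure D2:**
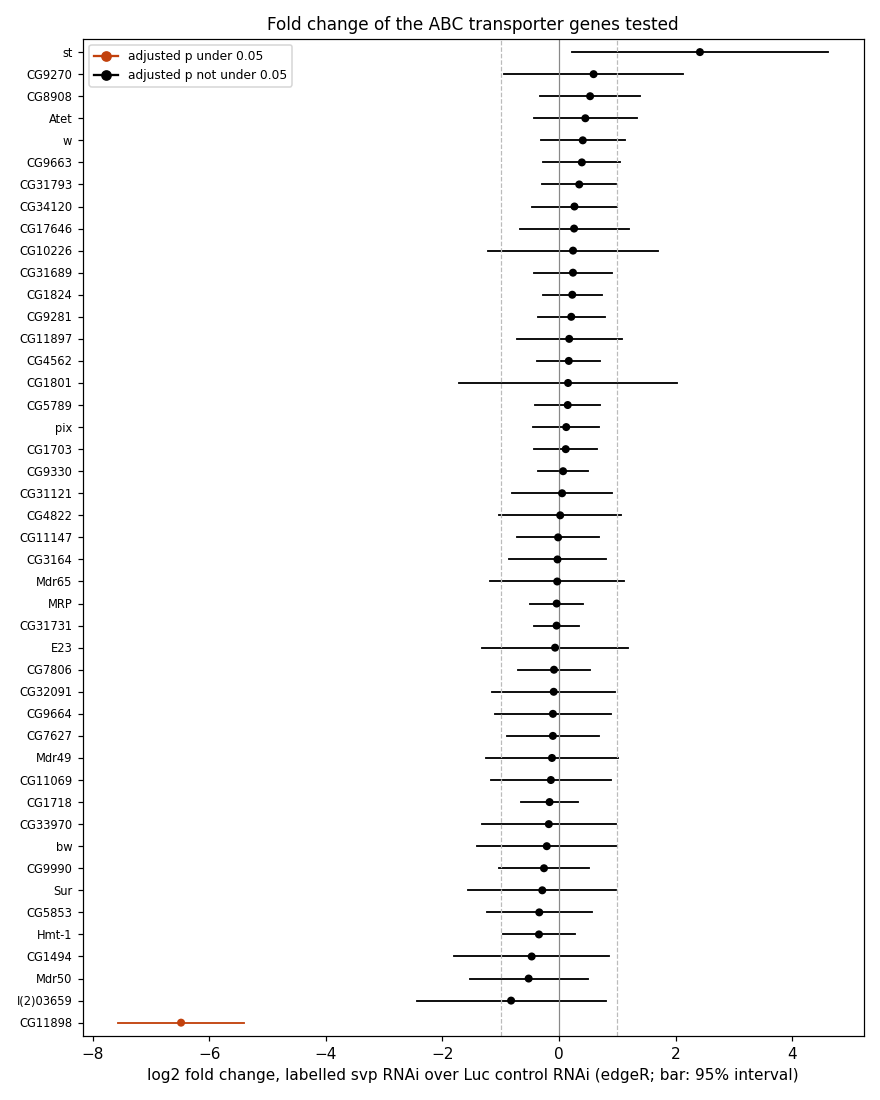
log2 fold change (libraries labelled svp RNAi over Luc control RNAi, edgeR) of 45 ABC transporter genes tested, with 95% intervals as bars and dashed lines at −1 and 1. CG11898 stands at −6.48 and st at 2.42, and the other genes lie between −0.82 and 0.59.

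*CG11898* (FBgn0039645; chromosome 3R from 29165643 to 29171508, BDGP6, plus strand) encodes a C subfamily transporter, related to the multidrug resistance-associated proteins. It had 4, 2 and 5 counts in libraries labelled *svp* RNAi, against 333, 394 and 242 counts in *Luc* control RNAi libraries. Every library labelled *svp* RNAi was thus close to the limit of detection, and every control library well above it. In FPKM the gene was at 0.0471 ± 0.0192 in libraries labelled *svp* RNAi and 4.14 ± 1.02 in *Luc* control RNAi libraries (SD, n = 3 each). The log2 fold change was −6.48 (SE 0.45, 95% interval −7.56 to −5.41), with an adjusted p of 0.00558 in edgeR and 2.3e-25 in DESeq2. Summed over libraries it had 11 counts in libraries labelled *svp* RNAi, against 969 counts in *Luc* control RNAi libraries, which is 88.5-fold lower at equal TMM-scaled totals (exact 95% counting interval 49.3 to 178). Control levels place it in the middle of its subfamily, close to *CG31793* (5.12 FPKM in *Luc* control RNAi libraries) and *CG4562* (3.31 FPKM). The call was kept without any 1 control library. Without 1 library labelled *svp* RNAi the log2 fold change stayed between −6.78 and −6.32, and the edgeR adjusted p was 0.0504 to 0.0959, which ends the call.

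*CG11897*, named *rdog* in RefSeq, is the neighbor of *CG11898*, another C subfamily gene that ends 676 bases before it on the same strand. It had 2607, 1151 and 1982 counts in libraries labelled *svp* RNAi, against 3288, 742 and 1318 counts in *Luc* control RNAi libraries. These values overlap, and the log2 fold change was 0.17 (SE 0.38). Relative to the FPKM of *CG11897* in the same library, *CG11898* was at 0.170, 0.193 and 0.280% in libraries labelled *svp* RNAi, against 11.2, 58.8 and 20.3% in *Luc* control RNAi libraries. The ratio of the neighboring genes did not overlap between the groups, which follows from the *CG11898* counts above and is no separate result.

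On the other side, *CG14509* lies on the opposite strand, and its exons share 318 bases with the 3′ end of *CG11898*. It had 28, 16 and 30 counts in libraries labelled *svp* RNAi, against 88, 61 and 45 counts in *Luc* control RNAi libraries. These groups do not overlap, and the log2 fold change was −1.39 (SE 0.36), with an adjusted p of 0.457 in edgeR and 0.0765 in DESeq2, so that it passed neither test. The strand setting of the counting is not given in the sources used here, and reads from the shared bases cannot be assigned to either gene. All 9 genes other than *CG11898* within 25 kb were tested, none was called, and their log2 fold changes lay between −1.39 for *CG14509* and 0.17 for *CG11897*. In CPM, *CG11882*, 17470 bases away, did not overlap between the groups either (log2 fold change −0.61). Of all genes tested, 9.32% did not overlap in CPM.

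**Figure D3:**
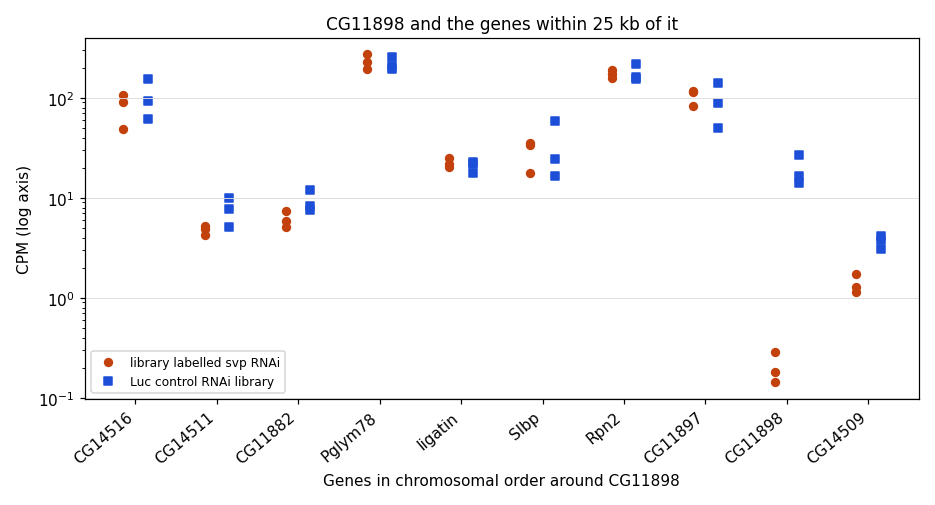
CPM (log axis) of CG11898 and the 9 genes within 25 kb, in chromosomal order, with 1 point per library; in each pair the libraries labelled svp RNAi are on the left and the Luc control RNAi libraries on the right. CG11898 lies at 0.143 to 0.29 CPM in libraries labelled svp RNAi and at 14.2 to 26.7 CPM in Luc control RNAi libraries, while CG11897 next to it overlaps between the groups.

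The E and F subfamilies, which act on translation, were abundant and did not pass the test. *pix* (pixie), the fly ABCE gene, whose protein recycles ribosomes after translation ends, was the most abundant ABC transcript. It was at 148, 146 and 164 FPKM in libraries labelled *svp* RNAi, against 143, 127 and 132 FPKM in *Luc* control RNAi libraries. In CPM the groups overlapped, and the log2 fold change was 0.12 (95% interval −0.45 to 0.69). The 3 ABCF genes had log2 fold changes of 0.070 (*CG9330*), 0.11 (*CG1703*) and 0.21 (*CG9281*), each with an interval inside −1 to 1. *CG9281* was at 85.4, 58.3 and 81.5 FPKM in libraries labelled *svp* RNAi, against 113, 40.5 and 49.5 FPKM in *Luc* control RNAi libraries. The second library of each group was its lowest, and the first control library was the highest of all 6.

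The G subfamily held the largest share of ABC transcripts, with summed levels of 434, 445 and 430 FPKM in libraries labelled *svp* RNAi, against 306, 370 and 405 FPKM in *Luc* control RNAi libraries. The sums do not overlap in FPKM, which has no TMM scaling. In CPM each of the 14 G genes overlapped between the groups. None of them passed the test, and the median of their log2 fold changes was 0.036. The most abundant of them were *CG17646*, *CG31689* and *CG3164*, half-transporters related to mammalian ABCG1, which moves sterols. *CG17646* was at 150, 154 and 141 FPKM in libraries labelled *svp* RNAi, against 83.6, 110 and 146 FPKM in *Luc* control RNAi libraries. Its control libraries spread more than those labelled *svp* RNAi, and the log2 fold change was 0.26 (95% interval −0.68 to 1.19). *CG31689* was at 106, 105 and 113 FPKM in libraries labelled *svp* RNAi, against 80.0, 89.0 and 88.2 FPKM in *Luc* control RNAi libraries, with a log2 fold change of 0.24 (95% interval −0.44 to 0.91). *CG3164* was nearly level, at 86.8 ± 5.88 FPKM in libraries labelled *svp* RNAi and 82.0 ± 14.2 FPKM in *Luc* control RNAi libraries (SD, n = 3 each).

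Among the G genes are 3 eye color genes whose products pair as half-transporters: White with Brown for guanine-derived precursors of red pigment, and White with Scarlet for tryptophan-derived precursors of brown pigment. Transcripts of *w* and *bw* stood at similar levels, and those of *st* lower. *w* was at 6.18, 5.65 and 5.01 FPKM in libraries labelled *svp* RNAi, against 3.76, 4.23 and 3.96 FPKM in *Luc* control RNAi libraries, and its log2 fold change was 0.41 (95% interval −0.31 to 1.12). Fly transgenes are often marked with a copy of *w*, and the counts cannot tell such a copy from the gene itself. *bw* was at 6.08, 4.95 and 3.36 FPKM in libraries labelled *svp* RNAi, against 2.88, 5.05 and 6.86 FPKM in *Luc* control RNAi libraries. Its group means were almost equal in FPKM, and its log2 fold change was −0.21 (95% interval −1.41 to 0.99). The exons of *bw* share 456 bases with *mi* on the opposite strand.

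*st* was the least abundant of the trio and the most variable ABC gene. It had 160, 63 and 13 counts in libraries labelled *svp* RNAi, against 34, 4 and 8 counts in *Luc* control RNAi libraries. The groups overlap, because library 3 labelled *svp* RNAi, at 0.754 CPM, lay below control library 1, at 1.45 CPM. The log2 fold change of 2.42 (SE 0.92, 95% interval 0.22 to 4.61) had an unadjusted p of 0.035 and an adjusted p of 0.912 in edgeR. Over the alternatives tried, it ranged from 0.96 to 3.88, with 0.0922 as the lowest adjusted p.

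Pigment precursors are also stored in Malpighian tubules, and the tubule markers *Irk3* and *Uro* had the library order of *st* within each group. *Irk3*, a tubule potassium channel, was at 13.9, 8.02 and 3.54 CPM in libraries labelled *svp* RNAi, against 2.94, 2.58 and 2.64 CPM in *Luc* control RNAi libraries. *Uro*, the urate oxidase of the tubules, was at 38.6, 25.5 and 13.2 CPM in libraries labelled *svp* RNAi, against 18.1, 5.43 and 15.2 CPM in *Luc* control RNAi libraries. *CapaR*, *Lkr* and *ZnT35C*, the other tubule markers, did not share this order. All 5 had a log2 fold change above 0 and none was called, and their summed level was 37.0 to 85.0 CPM in libraries labelled *svp* RNAi and 22.3 to 47.6 CPM in *Luc* control RNAi libraries. None of the 5 was at 0. *st* was the only ABC gene whose libraries had the same order as *Irk3* within each group. That is 2.17% of the ABC genes tested, near the 1.65% of all genes tested. The order of control libraries 2 and 3 rests on 38 and 39 counts of *Irk3* and on 4 and 8 counts of *st*, so it is uncertain. The part of tubule RNA in the values of *st* was not tested. In such bulk samples, fewer cells of a type and less RNA per cell cannot be told apart.

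A pair of G genes is tied to the steroid hormone ecdysone. *Atet* is known from the larval prothoracic gland, where its product loads ecdysone into secretory vesicles. It was at 24.8, 23.8 and 23.2 FPKM in libraries labelled *svp* RNAi, against 11.8, 18.9 and 17.2 FPKM in *Luc* control RNAi libraries, and its log2 fold change was 0.45 (95% interval −0.43 to 1.33). *E23*, an ecdysone-induced gene whose product counters the hormone's response, was at 12.5, 5.48 and 10.4 FPKM in libraries labelled *svp* RNAi, against 23.3, 3.19 and 6.54 FPKM in *Luc* control RNAi libraries. The control libraries of *E23* thus held both its highest and its lowest values, and its log2 fold change of −0.068 (95% interval −1.32 to 1.19) became 0.68 without the first control library.

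The remaining G genes were of middle or low level. *CG4822*, which lies 869 bases from *CG3164* on the same strand, was at 19.9 ± 1.32 FPKM in libraries labelled *svp* RNAi and 17.7 ± 5.80 FPKM in *Luc* control RNAi libraries (SD, n = 3 each). The neighbors *CG9664* and *CG9663*, 219 bases apart, had log2 fold changes of −0.11 and 0.39. *CG31121* and *CG11069*, divergent genes 136 bases apart and related to the mammalian sterol exporters ABCG5 and ABCG8, were both between 1.06 and 2.25 FPKM in every library, with log2 fold changes of 0.052 and −0.14. *CG5853* shares 1853 of its 2623 exon bases with *CG4619* on the opposite strand, so its value (log2 fold change −0.34, SE 0.38) is uncertain.

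The B subfamily includes the fly P-glycoproteins, which expel drugs and toxins, and the heavy metal tolerance factor *Hmt-1*. The median log2 fold change of its 6 genes was −0.077, and none passed the test. *Mdr49* was the leading P-glycoprotein gene, at 16.6, 36.6 and 24.0 FPKM in libraries labelled *svp* RNAi, against 20.8, 33.2 and 25.6 FPKM in *Luc* control RNAi libraries. The ranges of the groups overlapped, and the log2 fold change was −0.12 (95% interval −1.26 to 1.02). *Mdr65*, known for its part in the blood-brain barrier, and *Mdr50* were both much lower in level. *Mdr65* was at 0.662 ± 0.163 FPKM in libraries labelled *svp* RNAi and 0.653 ± 0.312 FPKM in *Luc* control RNAi libraries (SD, n = 3 each). *Mdr50* was at 0.648 ± 0.0949 FPKM in libraries labelled *svp* RNAi and 0.883 ± 0.283 FPKM in *Luc* control RNAi libraries (SD, n = 3 each). Next to *Mdr65* lies *CG10226*, whose library 3 labelled *svp* RNAi held 15 counts where library 2 held 66, a spread that left its 95% interval between −1.21 and 1.69.

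*Hmt-1*, whose product is known for cadmium tolerance, was at 32.4, 26.6 and 34.9 FPKM in libraries labelled *svp* RNAi, against 36.9, 41.8 and 33.4 FPKM in *Luc* control RNAi libraries. The log2 fold change was −0.34 (95% interval −0.97 to 0.28). *CG10505*, a C subfamily gene that responds to metals, had 5, 5 and 7 counts in libraries labelled *svp* RNAi, against 7, 5 and 7 counts in *Luc* control RNAi libraries, too few to be tested. Of the genes for metallothioneins, which bind such metals, *MtnA*, *MtnD* and *MtnE* had log2 fold changes of 2.22, 2.65 and 2.34, with edgeR adjusted p-values of 0.536, 0.0904 and 0.0786. *MtnB* and *MtnC* had values of the opposite sign, −1.35 and −1.29. edgeR called none of the 7 metal response genes listed, and DESeq2 called *MtnA*, *MtnD* and *MtnE*.

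Apart from *CG11898*, the C subfamily showed no called change in its other 10 genes tested. *MRP*, the fly relative of the multidrug resistance-associated protein that exports glutathione conjugates, was at 30.1, 27.1 and 26.1 FPKM in libraries labelled *svp* RNAi, against 36.3, 27.6 and 21.0 FPKM in *Luc* control RNAi libraries. Its log2 fold change of −0.041 had a 95% interval of −0.50 to 0.42. *CG7627* was the most abundant C gene by mean, at 34.0, 18.0 and 27.7 FPKM in libraries labelled *svp* RNAi, against 55.9, 14.9 and 20.5 FPKM in *Luc* control RNAi libraries. *CG5789*, named *Cftr* in RefSeq after the human chloride channel gene, was at 19.3 ± 2.54 FPKM in libraries labelled *svp* RNAi and 18.3 ± 10.8 FPKM in *Luc* control RNAi libraries (SD, n = 3 each). In both genes the first control library stood above the rest. The sulfonylurea receptor gene *Sur* was at 0.366 ± 0.121 FPKM in libraries labelled *svp* RNAi and 0.440 ± 0.242 FPKM in *Luc* control RNAi libraries (SD, n = 3 each).

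The lowest fitted value of the C genes after *CG11898* belonged to the gene with identifier FBgn0010549, known from a lethal mutation. It was at 7.25, 3.65 and 7.48 CPM in libraries labelled *svp* RNAi, against 21.2, 2.99 and 8.32 CPM in *Luc* control RNAi libraries. The first control library was the highest of the 6 and the second the lowest, and the log2 fold change was −0.82 (95% interval −2.44 to 0.80). *CG31792*, with 1, 14 and 10 counts in libraries labelled *svp* RNAi against 2, 4 and 5 counts in *Luc* control RNAi libraries, was not tested. Its neighbor *CG31793*, 653 bases further on the same strand, was at 6.78 ± 0.582 FPKM in libraries labelled *svp* RNAi and 5.12 ± 0.895 FPKM in *Luc* control RNAi libraries (SD, n = 3 each). It shares 202 exon bases with the ribosomal protein gene *RpL30* on the opposite strand, which had 9933 to 13950 counts, so its level is uncertain.

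In the A subfamily, whose mammalian members move lipids, 3 genes had a log2 fold change above 0 and 3 below. *CG34120* (*ldd* in RefSeq) was at 18.4, 19.8 and 19.7 FPKM in libraries labelled *svp* RNAi, against 13.5, 17.1 and 14.6 FPKM in *Luc* control RNAi libraries. It did not overlap in FPKM but did in CPM, and its log2 fold change was 0.26 (95% interval −0.46 to 0.99). *CG31731* (*Eato*, named for engulfment in the ovary) was among the steadiest ABC genes in CPM. It was at 54.3, 58.1 and 54.9 CPM in libraries labelled *svp* RNAi, against 55.2, 58.8 and 58.3 CPM in *Luc* control RNAi libraries. In FPKM it spread more, at 18.3, 15.4 and 16.8 FPKM, against 22.7, 14.6 and 14.3 FPKM. *CG1718* (*Abca3* in RefSeq) was at 9.83 ± 0.810 FPKM in libraries labelled *svp* RNAi and 10.7 ± 2.30 FPKM in *Luc* control RNAi libraries (SD, n = 3 each). It lies between *CG1494* and *CG1801*, both under 0.5 FPKM in every library, so that 3 adjacent A genes differed widely in level.

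Each of the 3 H genes had a log2 fold change below 0, from −0.26 to −0.016, and none passed the test. Of all genes tested, 40.9% had a log2 fold change above 0. The sign turned in 7 of 15 alternatives for *CG11147* and in 4 of 15 for *CG33970*, and *CG9990* kept its sign. *CG9990* (*snu*), needed for the lipid barrier of the cuticle, was at 11.2, 13.5 and 13.8 FPKM in libraries labelled *svp* RNAi, against 12.9, 16.9 and 13.6 FPKM in *Luc* control RNAi libraries. *CG33970* (*osy*), a barrier gene of cuticle and trachea, was at 4.66, 3.41 and 6.13 FPKM in libraries labelled *svp* RNAi, against 4.57, 7.86 and 2.48 FPKM in *Luc* control RNAi libraries. *CG11147*, the most abundant of the 3, was at 21.6 ± 2.54 FPKM in libraries labelled *svp* RNAi and 20.8 ± 1.68 FPKM in *Luc* control RNAi libraries (SD, n = 3 each). The groups overlapped for each of them.

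Whether groups overlapped depended on the scale. In CPM, 1 of the 46 ABC genes tested did not overlap, *CG11898*, where 9.32% of all genes tested did not. In FPKM, which the authors made without TMM scaling, 9 did not, where 12.1% of all genes did not. *CG11898* was lower, with 4.37% of all genes lower in this way. The other 8 were higher in libraries labelled *svp* RNAi, with 7.73% of all genes higher: *pix*, *CG31689*, *Atet*, *CG34120*, *CG9663*, *CG31793*, *w* and *CG8908*. The largest of these in fold change was *CG8908*, an A gene, at 2.51, 2.71 and 2.18 FPKM in libraries labelled *svp* RNAi, against 1.39, 1.97 and 1.43 FPKM in *Luc* control RNAi libraries (log2 fold change 0.53 in edgeR, 95% interval −0.32 to 1.39). Such an FPKM difference without a passed test is a description of these 6 libraries only.

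The median ABC gene spread more widely among the control libraries. The highest *Luc* control RNAi library exceeded the lowest by a median of 2.02-fold in CPM, against 1.44-fold in libraries labelled *svp* RNAi. Within groups, the SD of log2 CPM had a median of 0.437 over ABC genes tested and 0.417 over all genes tested. In CPM, the first control library was the lowest control for 30 of the 46 ABC genes tested (65.2%, against 47.6% of all genes). This library, which held most midgut transcripts, was the highest for 11 (23.9%, against 42.0%). It also had the largest TMM factor, 1.39, and FPKM gave another order for some of the 30. In FPKM it was the highest control for *pix* (143, 127 and 132 FPKM) and *CG31731* (22.7, 14.6 and 14.3 FPKM), for example. Markers of other cells varied too, and their part in these values was not tested. The germline gene *osk* was at 250, 86.5 and 188 CPM in libraries labelled *svp* RNAi, against 371, 71.5 and 178 CPM in *Luc* control RNAi libraries. *CG7627*, *CG11897* and *E23* shared its order of libraries in both groups (3 of 46, 6.52%, against 19.1% of all genes tested). Among the 12 ovary markers, *nos* also had the order of *osk* in both groups, and the others did not. The tubule marker *ZnT35C* had it too. In library order, the 12 ovary markers summed to 2903, 1218 and 957 CPM in libraries labelled *svp* RNAi. In *Luc* control RNAi libraries they summed to 1698, 986 and 455 CPM, so the sum did not have the order of *osk*.

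More ABC genes had the order of the hemocyte gene *Hml*. It was at 453, 1086 and 555 CPM in libraries labelled *svp* RNAi, against 338, 1103 and 596 CPM in *Luc* control RNAi libraries. The 6 hemocyte markers summed to 794 to 1977 CPM in libraries labelled *svp* RNAi and 638 to 2092 CPM in *Luc* control RNAi libraries. This order of libraries was not particular to hemocytes. Summed muscle markers had it too (335, 459 and 376 CPM labelled *svp* RNAi, 184, 1259 and 381 CPM in *Luc* control RNAi). So did summed trachea and epidermis markers (17.8, 43.7 and 25.5 CPM, against 16.7, 38.1 and 25.6 CPM). The 13 ABC genes with this order (28.3%, against 12.6% of all genes tested) included *Mdr49*, *Mdr50*, *CG32091*, *Atet* and *CG9990*. In some of the 13 the order rests on small differences. *Mdr50* was at 3.08 and 3.07 CPM in libraries 2 and 3 labelled *svp* RNAi. *CG31731*, also among the 13, was at 54.3, 58.1 and 54.9 CPM there, against 55.2, 58.8 and 58.3 CPM in *Luc* control RNAi libraries. The orders of *osk* and *Hml* were chosen after the values were seen and carry no test. *CG11898* had neither order in both groups. In *Luc* control RNAi libraries alone it had the order of *Hml*, at 14.2, 26.7 and 16.4 CPM. Its 4, 2 and 5 counts in libraries labelled *svp* RNAi are too few to give an order.

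**Figure D4:**
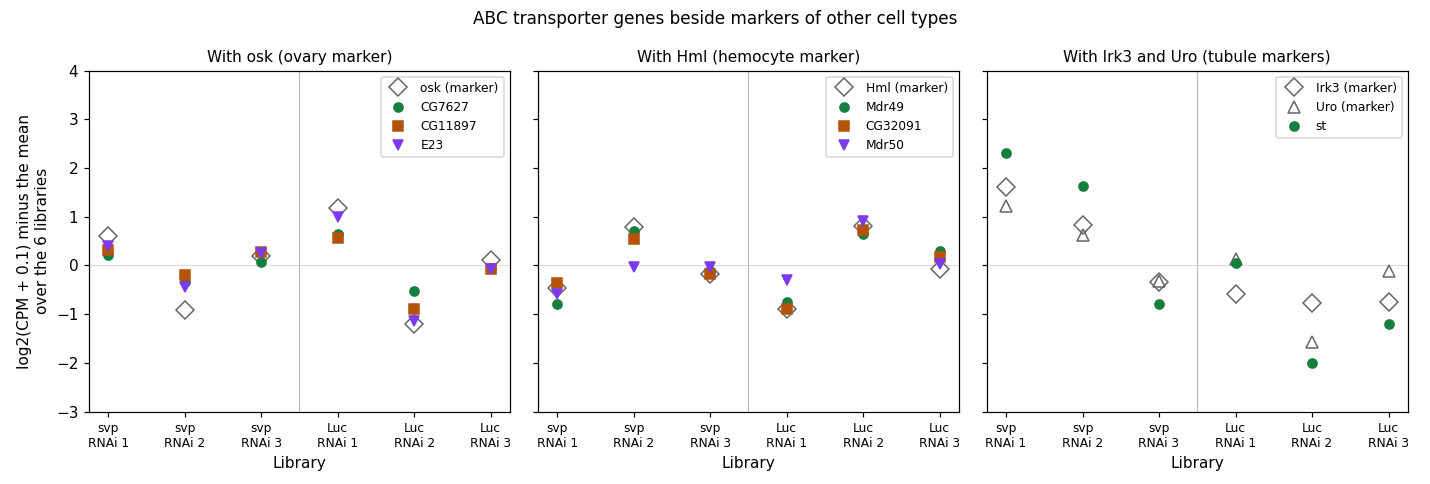
log2(CPM + 0.1) minus the mean over the 6 libraries, with the 3 libraries labelled svp RNAi left of the line and the 3 Luc control RNAi libraries right of it. CG7627, CG11897 and E23 follow the library order of osk, Mdr49, CG32091 and Mdr50 that of Hml, and st that of Irk3, with markers drawn as open symbols.

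Other ABC genes and related gene lists were read beside the 49. A list of 12 further ABC names gave 7 genes outside the 49, of which 5 were tested and none called, with a median log2 fold change of 0.13. *Pmp70*, which encodes a peroxisomal half-transporter, was at 88.9, 63.0 and 79.5 FPKM in libraries labelled *svp* RNAi, against 72.1, 51.2 and 62.9 FPKM in *Luc* control RNAi libraries, a level near those of *CG3164* and *CG9281*. *Mrp4*, to which the listed name *dMRP4* belongs, had a log2 fold change of 0.067 (SE 0.43). For 8 enzymes tested of pigment precursor synthesis, upstream of *w*, *bw* and *st*, the median log2 fold change was 0.020, and none was called.

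The Oatp genes encode another family of organic anion carriers, several of them expressed in tubules. Of the 7 tested, edgeR called none and DESeq2 called 2, *Oatp58Db* and *Oatp58Dc*. *Oatp58Dc* was at 25.7, 11.9 and 6.67 CPM in libraries labelled *svp* RNAi, against 3.32, 2.04 and 3.65 CPM in *Luc* control RNAi libraries. Among those labelled *svp* RNAi, library 1 was the highest and library 3 the lowest, as for *st* and *Irk3*. The control order differed, since library 3 was the highest control for *Oatp58Dc* and library 1 for *st* and *Irk3*.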

How the data were processed

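The authors aligned reads of poly(A)-selected RNA with TopHat, counted fragments on genes with HTSeq and deposited whole-number counts without normalization. They also deposited FPKM values, made from these counts, the library totals and a gene length. Tool versions, strand setting and how multi-mapped reads were handled are not given in the sources used here. Coordinates are on BDGP6, and 46 of the 49 ABC genes had those of the reference annotation.

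Counts were compared with edgeR 4.0.16 (TMM, filterByExpr, quasi-likelihood test) in R 4.3.3, and p-values of the 9277 genes were adjusted by the method of Benjamini and Hochberg (threshold 0.05). edgeR was tested on simulated data. Alternatives were DESeq2 1.42.0, its size factors or upper quartile scaling in edgeR, no filter, a mean of at least 10 counts, adjusted p under 0.01 or 0.1, the replicate number as a block, limma 3.58.1 on log2(FPKM + 1) or log2(FPKM + 0.1) for genes with a mean of at least 1 FPKM, and leaving out each library in turn. A fit without *Luc* control RNAi replicate 1 and *svp* RNAi replicate 3, which held most midgut transcripts, was chosen after seeing the data.

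Libraries of a group differed by far more than sampling noise. Genes were named by rule: those called or with an unadjusted p under 0.05, the 3 most abundant of subfamilies A, B, C, G and H, all of E and F, genes with a known role, and *CG11897*. Any further gene was picked with its values in view. The members and lists were chosen with earlier results of these data known. Subfamilies follow the listed families, and sequences were not used here. 1 ABC gene that was counted and tested with the rest is not reported here.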

Additional observations from a re-analysis of the deposited data

How the results depend on the processing

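*CG11898* was the single ABC gene called with every scaling, filter, tool and threshold tried. The count of ABC genes called was 0 to 1 when 1 library was left out (0 whenever a library labelled *svp* RNAi was left out, with 3 genes called in all), and so was the count called lower. The log2 fold change of *CG11898* was −6.78 to −6.17 without 1 library and −2.27 in limma with a pseudocount of 1 FPKM, which by construction shortens the fold of low values. The median over ABC genes stayed between −0.063 and 0.14. Over all genes the count called was 9 in edgeR, 149 in DESeq2, 14 with its size factors, 25 with no filter, 44 and 42 in limma with pseudocounts of 1 and 0.1, 4 and 23 at thresholds of 0.01 and 0.1, 3 to 61 without 1 library (61 without *Luc* control RNAi replicate 1, 5 and 4 without replicates 2 and 3) and 23 without *Luc* control RNAi replicate 1 and *svp* RNAi replicate 3.

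Of the 28 named genes with a fit, 11 kept their sign in all alternatives, and *CG11898* was the only 1 called in any. The log2 fold changes that turned sign are given here. With upper quartile scaling they were 0.015 for *CG3164*, 0.0016 for *MRP*, 0.027 for *CG11147*, 0.00070 for *CG31731* and 0.0052 for *Mdr65*. In limma with a pseudocount of 1 FPKM they were 0.095 for *CG3164*, 0.0053 for *MRP*, 0.044 for *CG11147*, 0.13 for *E23* and 0.018 for *CG33970*. With a pseudocount of 0.1 FPKM they were 0.096 for *CG3164*, 0.0065 for *MRP*, 0.045 for *CG11147*, 0.18 for *E23*, 0.0045 for *bw* and 0.040 for *CG33970*. Without *Luc* control RNAi replicate 1 and *svp* RNAi replicate 3 they were −0.053 for *pix*, −0.025 for *CG9330*, 0.28 for *CG7627*, 0.60 for *E23* and 0.0049 for *Mdr65*.

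Without 1 library, genes that turned sign ranged from −0.015 to 0.24 (*pix*), −0.030 to 0.62 (*CG17646*), −0.29 to 0.17 (*CG3164*), −0.34 to 0.31 (*CG7627*), −0.014 to 0.35 (*CG1703*), −0.12 to 0.085 (*MRP*), −0.59 to 0.19 (*Mdr49*), −0.12 to 0.64 (*CG11897*), −0.20 to 0.17 (*CG11147*), −0.24 to 0.018 (*CG1718*), −0.45 to 0.68 (*E23*), −0.56 to 0.22 (*bw*), −0.45 to 0.55 (*CG33970*), −0.31 to 0.52 (*Mdr65*) and −0.64 to 0.26 (*Sur*).

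Whether same-numbered libraries were made together is not given in the labels. Their deviations from the group means correlated with r = 0.563, 0.622 and −0.327 over 9277 genes, which cannot settle it. For libraries 1 and 2 labelled *svp* RNAi, the same-numbered control had the highest r. For library 3 labelled *svp* RNAi it was control library 1 (r = 0.466). With the replicate block 27 genes were called in all and again 1 ABC gene, with a median log2 fold change of 0.058 over ABC genes. Signs turned to 0.053 for *CG3164*, 0.0033 for *CG11147*, 0.14 for *E23*, 0.012 for *CG33970* and 0.085 for *Mdr65*. The cause of these changes of sign was not tested. With 3 libraries per group, the 95% intervals of most ABC genes reached a 2-fold change.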
